A study of Mus musculus with 16 samples.

Results

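The genes described here encode enzymes that remove reactive oxygen species, enzymes that build or use glutathione, the haem-degrading enzyme Hmox1, and the metal-binding metallothioneins Mt1 and Mt2. They were listed by name and not by a cut on measured values, though earlier results of these data were known. The genes are Hmox1, Nqo1, Gclc, Gclm, Gpx1, Sod1, Sod2, Cat, Mt1 and Mt2. All 10 were found on the Agilent mouse array through the gene name given for each probe, with 13 probes of 41174 in all, and all 10 were among the 17981 genes tested. The samples were whole cerebella taken at 3 weeks of age from mice on a BALB/c background. One group was Npc1-/-, homozygous for the Npc1m1N allele and bred in house from heterozygotes, and the other was wild type (Npc1+/+). Npc1 encodes a membrane protein that carries cholesterol out of lysosomes. The allele is carried in every cell, so a difference cannot be assigned to a cell type by the model. Each group had 4 Agilent arrays out of 16 arrays in the series. The other 8 arrays, from a bead platform whose probes carry no gene names here, were not used.

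Several of these genes are classical targets of the transcription factor NRF2 (Nfe2l2), which KEAP1 holds down in unstressed cells and which binds antioxidant response elements in their regulatory DNA, where BACH1 competes with it. Metallothioneins are small cysteine-rich proteins that buffer zinc and copper; their transcription rises with metals, through the zinc-sensing factor MTF1 at metal response elements, and with glucocorticoid hormone. In brain, Mt1 and Mt2 are made mainly by astrocytes, Mt3 is the neural member of the family, and Hmox1 is low in resting tissue and inducible in glia and macrophages.

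The letters that MTF1 recognises are dense in the starts of the pair of metallothionein genes that varied most between arrays, and their start regions are shown for that reason. Windows from 250 bases before to 50 bases after the gene start were taken from RefSeq on mouse assembly GRCm38.p6, and 8 of the 10 genes had one. Hmox1 and Gclc had none. The metal response element cores TGCACNC and TGCGCNC, searched on both strands, are in capitals, and no core shown overlaps another.

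Mt1, chr8:94178839-94179138, plus strand: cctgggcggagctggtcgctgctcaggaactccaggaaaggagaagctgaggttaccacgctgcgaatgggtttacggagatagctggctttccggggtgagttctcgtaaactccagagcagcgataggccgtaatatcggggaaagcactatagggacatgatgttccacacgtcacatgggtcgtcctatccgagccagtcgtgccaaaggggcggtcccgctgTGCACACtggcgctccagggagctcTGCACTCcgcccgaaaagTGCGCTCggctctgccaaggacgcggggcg
Mt2, chr8:94172368-94172667, plus strand: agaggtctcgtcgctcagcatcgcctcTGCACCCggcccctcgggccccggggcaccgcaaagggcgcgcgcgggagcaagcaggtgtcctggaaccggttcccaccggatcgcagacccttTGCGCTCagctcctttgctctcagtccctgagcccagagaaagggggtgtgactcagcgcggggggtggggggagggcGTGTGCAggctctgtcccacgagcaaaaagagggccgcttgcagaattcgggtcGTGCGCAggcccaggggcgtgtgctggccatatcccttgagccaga
Mt3, chr8:94152357-94152656, plus strand: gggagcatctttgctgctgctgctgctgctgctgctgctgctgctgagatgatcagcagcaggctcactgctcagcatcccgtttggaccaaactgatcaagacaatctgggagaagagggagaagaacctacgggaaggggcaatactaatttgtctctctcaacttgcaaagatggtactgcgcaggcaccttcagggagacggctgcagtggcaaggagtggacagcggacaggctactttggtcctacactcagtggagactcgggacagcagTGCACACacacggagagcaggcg

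The Mt1 window held 3 cores and the Mt2 window 4, whereas the window of the brain metallothionein Mt3 held 1. Among 32851 windows of the same length, 25.7% held at least 1 core, 1.97% at least 3 and 0.517% at least 4. Gclm, the modifier subunit of glutamate-cysteine ligase, also held 3. The antioxidant response element core TGACNNNGC was found in the windows of Gclm, Mt2 and Sod1, 3 of 8 genes, against 12.4% of all windows. The windows of Nqo1, Cat, Gpx1, Sod2 and Mt1 did not hold it, and Hmox1 and Gclc could not be searched. A match describes letters in this window and shows no binding, and a window without a match says nothing of the sequence outside it. The arrays read the metallothionein transcripts with 60-base probes, and the Mt1 probe printed in 10 spots per array lies at chr8:92769155-92769214 in the mm7 build of the files. Its place in the transcript was not determined. It is given next in the reading frame with the most cysteine codons, 6 of 19, which are in capitals.

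Mt1 probe: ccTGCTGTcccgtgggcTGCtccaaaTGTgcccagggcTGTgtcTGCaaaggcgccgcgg

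Levels are log2 processed signals with the array's own 75th percentile subtracted, so 0 is the signal of a fairly bright spot and each unit is a doubling. They are given for Npc1-/- replicates 1 to 4 and then wild-type replicates 1 to 4, and are compared between arrays for a single probe. Signal was set across probes only to choose a gene's brightest probe and the genes to name, and in the summed signal of a marker list. On each array 23586 to 29891 of the 43379 non-control spots exceeded background clearly, and wild-type replicate 2 had the fewest. Wild-type replicate 3 stood farthest out on the first principal component (73.0, with 47.0% of the variance). Npc1 itself, the check on the labels, had a log2 fold change of -1.99 ± 0.10 (SE), Npc1-/- minus wild type, and its groups did not overlap. The labels name 4 mice of each genotype but do not say which mouse went on which array, so the spread between arrays is taken as the spread between mice. With 4 arrays per group, the number of arrays limits the precision.

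None of the 10 genes passed the threshold between genotypes. By limma with Benjamini-Hochberg adjustment over all 17981 genes, 0 of 10 had an adjusted p under 0.05, against 0.767% of all genes (138 genes, 132 higher and 6 lower in Npc1-/-). By probe, 0 of 13 passed, against 0.523% of 27162 probes. At an unadjusted p under 0.05 there was 1 of 10, Hmox1, against 7.4% of all genes, a share close to that background. The log2 fold change was positive for 7 genes and negative for 3, with a median of 0.10 beside -0.02 over all genes. Their SEs were like those of other genes (median 0.13 against 0.14), and the smallest difference that passed for any gene was 0.53 log2 units. Arrays of each genotype were fully apart for 1 of the 10, again Hmox1, where 4.92% of all genes were apart in either direction and 2.96% with Npc1-/- higher.

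**Figure D1:**
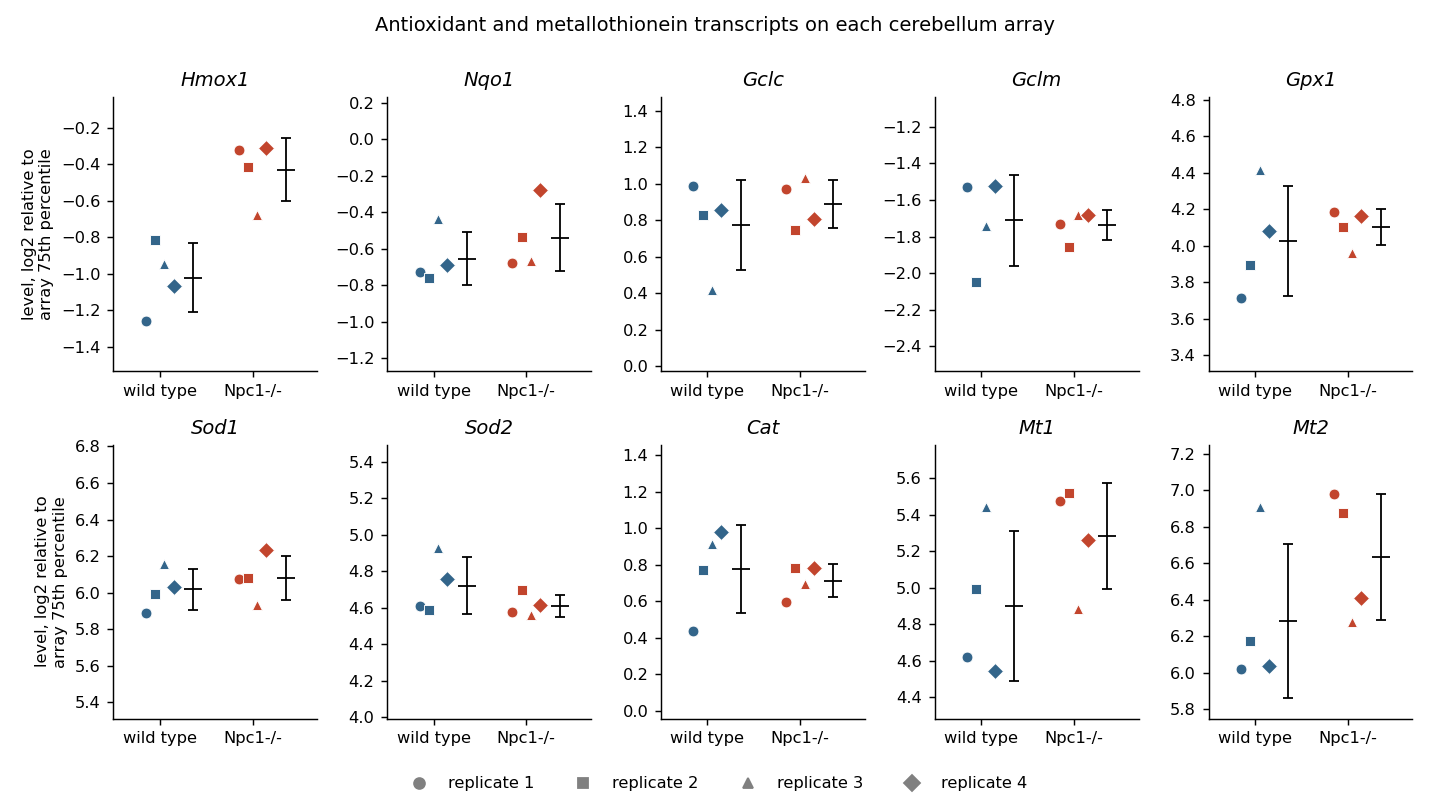
Level of each of the 10 transcripts on each Agilent array, in log2 units relative to the array's 75th percentile, with the mean and SD of 4 arrays beside each group; every panel spans the same number of log2 units. Hmox1 is the panel in which all 4 Npc1-/- arrays lie above all 4 wild-type arrays, and in Mt1 and Mt2 wild-type replicate 3 lies near the highest Npc1-/- arrays.

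Hmox1, the inducible oxygenase that opens the haem ring and releases iron, carbon monoxide and biliverdin, had the largest difference. Its level was -0.32, -0.42, -0.68 and -0.31 on the Npc1-/- arrays and -1.26, -0.81, -0.95 and -1.07 on the wild-type arrays. The groups did not overlap, with Npc1-/- replicate 3 nearest to the wild-type arrays and wild-type replicate 2 nearest to the Npc1-/- arrays. The means were -0.43 ± 0.17 and -1.02 ± 0.19 (SD, n = 4 each), a log2 fold change of 0.59 ± 0.13 (SE). This is 1.51-fold with a 95% confidence interval of 1.22 to 1.85, and the limma adjusted p was 0.120. Hmox1 ranked 249th of all genes by unadjusted p, outside the 138 that passed. Its single probe lies at chr8:73642229-73642288 (mm7).

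Hmox1 was higher in Npc1-/- within each of the 3 slides that held both genotypes, by 0.53, 0.50 and 0.58 log2 units, each resting on 1 wild-type array. It passed when arrays were weighted by their quality (0.65 ± 0.10, adjusted p = 0.0139), a fit in which 364 genes (2.02%) passed and no other of the 10 did. Over all 20 alternatives its adjusted p ran from 0.0139 to 0.766, and its difference from 0.48 to 0.73.

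Markers of microglia and macrophages were also higher in Npc1-/-. Of 16 such markers tested, 8 passed as higher and none as lower, against 0.767% of all genes. Their median log2 fold change was 1.18. The list was chosen with earlier results of these data known. Gpnmb, a glycoprotein of macrophages that store lipid, was clearly above background on the Npc1-/- arrays alone and entered the test through them. Of the 15 other markers 7 passed, with a median of 1.14. The lysozyme Lyz2, the galectin Lgals3 and the endosomal glycoprotein Cd68 differed by 3.03 ± 0.19, 2.26 ± 0.16 and 2.08 ± 0.13 log2 units (SE; limma adjusted p = 0.000450, 0.000530 and 0.000450). The difference of Gpnmb was bounded against the lowest signal well above background, at no less than 3.59 log2 units. All 16 differences were positive. The smallest were those of Tmem119 (0.14 ± 0.18, SE; limma adjusted p = 0.811) and P2ry12 (0.25 ± 0.19; adjusted p = 0.752), and for both the groups overlapped. The median of the list, after centring each gene on its mean over the 8 arrays, was 0.62, 0.62, 0.41 and 0.77 in Npc1-/- and -0.88, -0.58, -0.42 and -0.46 in wild type. Npc1-/- replicate 4 was the highest and wild-type replicate 1 the lowest for both the list and Hmox1, and Npc1-/- replicate 3 was the lowest of its group for both. Within wild type the order differed, with the list highest on replicate 3 and Hmox1 on replicate 2. The summed linear signal of the 16 markers was 30.7 to 39.7 in Npc1-/- and 8.70 to 12.6 in wild type, in multiples of the 75th percentile. Lyz2 alone made up 44.3% to 46.5% of that sum in Npc1-/- and 15.6% to 20.8% in wild type. The part of these cells in the Hmox1 difference was not tested, and in whole cerebellum more cells of a type cannot be told apart from more RNA per cell.

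The 3 named genes whose levels followed Hmox1 most closely over the 8 arrays were the chemokine Ccl6 (Pearson r = 0.993), the complement chain C1qb (0.991) and the galectin Lgals9 (0.991). These coefficients describe 8 arrays that share a genotype difference, and were picked as the highest of all genes. C1qb is itself one of the 16 markers.

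**Figure D2:**
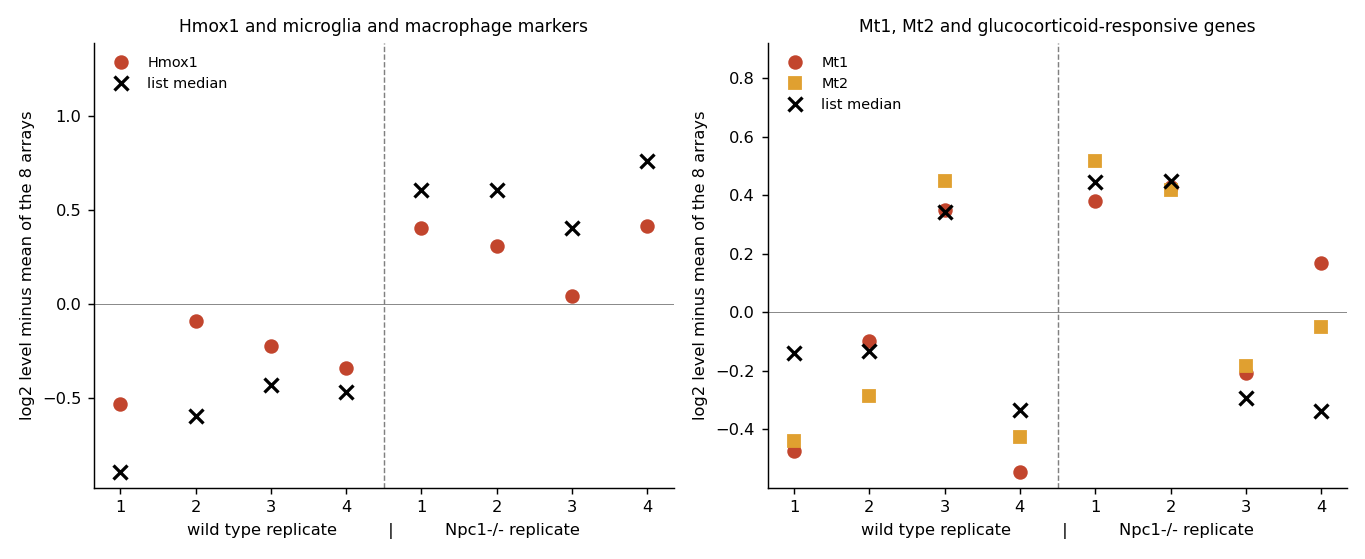
Left, Hmox1 and the median of 16 microglia and macrophage markers on each array; right, Mt1, Mt2 and the median of 13 glucocorticoid-responsive genes. Vertical axes are log2 levels minus the mean of the 8 arrays (each list gene was first centred on its own mean); the dashed line parts wild type from Npc1-/-. On the left both symbols lie higher on every Npc1-/- array than on any wild-type array, and on the right wild-type replicate 3 and Npc1-/- replicates 1 and 2 are the high arrays.

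Mt1 and Mt2, the metallothioneins with the largest spread over arrays of the 10 genes (SD 0.39 and 0.40 log2 units), overlapped between the genotypes. Mt2 was 6.98, 6.88, 6.28 and 6.41 in Npc1-/- and 6.02, 6.17, 6.91 and 6.04 in wild type. Npc1-/- replicates 1 and 2 and wild-type replicate 3 formed the high arrays, and the groups overlapped through wild-type replicate 3. The means were 6.64 ± 0.34 and 6.28 ± 0.42 (SD, n = 4 each), a log2 fold change of 0.35 ± 0.24 (SE), or 1.28-fold (95% confidence interval 0.872 to 1.87, limma adjusted p = 0.752). Mt1 was 5.47, 5.52, 4.88 and 5.26 in Npc1-/- and 4.62, 4.99, 5.44 and 4.55 in wild type. Again wild-type replicate 3 was among the highest arrays, and Npc1-/- replicate 3 lay below wild-type replicate 2. The difference was 0.38 ± 0.22 (SE), or 1.30-fold (95% confidence interval 0.914 to 1.86, adjusted p = 0.752). Both intervals run from a small decrease to nearly a doubling.

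The 10 spots of the Mt1 probe had an SD of 0.025 to 0.055 log2 units on the 8 arrays, where the SD between arrays was 0.29 in Npc1-/- and 0.41 in wild type. The spots share an array's labelling and hybridisation, so their SD covers spot error only. Mt1 has another probe, 167 bases upstream in mm7 and printed once. It read 0.33, 0.61, 0.48 and -0.28 in Npc1-/- and -0.05, -0.01, 0.07 and -1.82 in wild type, with wild-type replicate 4 far below the rest. Its difference was 0.74 ± 0.43 (SE; adjusted p = 0.811 over all probes), in the same direction as the first probe but with a wider error. The correlation between both Mt1 probes over the arrays was 0.619. On the single-spot probe wild-type replicate 3 lay below Npc1-/- replicates 1, 2 and 3.

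Mt1 and Mt2 varied together over the arrays. Their probes lie 6581 bases apart on chromosome 8 (mm7). Pearson r was 0.942 (exact permutation p = 0.00129) and Spearman rho 0.881 (exact permutation p = 0.00724) over 8 arrays. Of the 45 pairs among the 10 genes this was the highest r, and after Benjamini-Hochberg adjustment over the 45 pairs the p-values were 0.0580 and 0.161, so no pair passed. Without wild-type replicates 1 and 4, the arrays farthest from the median of Mt1, r was 0.929 over 6 arrays. Within Npc1-/- r was 0.905, and within wild type 0.943, from 4 arrays each. The pair of transcripts is similar in sequence, and whether each probe reads its own transcript alone was not tested.

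The median of the glucocorticoid-responsive list was highest on the same 3 arrays. The median, centred as above, was 0.48, 0.48, -0.26 and -0.31 in Npc1-/- and -0.11, -0.10, 0.37 and -0.30 in wild type, so Npc1-/- replicates 1 and 2 and wild-type replicate 3 stood above the other 5 arrays. On these 3 arrays 12, 11 and 11 of the 13 genes lay above their own mean over the arrays, against 0 to 5 on the others. Gpd1 was below its mean on Npc1-/- replicates 1 and 2, and Klf9 was slightly below its mean on Npc1-/- replicate 2. The immunophilin Fkbp5 (-2.72) and the receptor kinase Mertk (-1.47) were below theirs on wild-type replicate 3. Mt1 also lay above its mean on Npc1-/- replicate 4, where no gene of the list did. The list's part in the metallothionein levels was not tested. Of 13 members tested none passed between genotypes, with a median log2 fold change of 0.17. Gpd1, a glycerol-phosphate dehydrogenase of glia, and Ddit4, an inhibitor of mTORC1, the members with the highest signal, had -0.26 ± 0.15 and -0.09 ± 0.17 (SE; adjusted p = 0.752 and 0.872). The genes nearest to Mt2 in pattern over the 8 arrays were Arl4d (r = 0.988), the sulfotransferase Sult1a1 (0.975), which is in that list, and the thiamine transporter Slc19a2 (0.968). For Mt1 they were the methionine synthase Mtr (0.982), Calhm2 (0.957) and Usp53 (0.953).

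Within slides, the Mt1 difference was 0.08, 0.37 and 0.27 log2 units and that of Mt2 was -0.03, 0.52 and 0.25. The slide with the smallest values is the one that held wild-type replicate 3. With array weights Mt1 reached 0.70 ± 0.17 (SE; adjusted p = 0.0959) and Mt2 0.65 ± 0.18 (adjusted p = 0.128), neither past the threshold. Fits that left out 1 array gave 0.27 to 0.56 for Mt1 and 0.24 to 0.56 for Mt2, in each case highest without wild-type replicate 3.

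The superoxide dismutases convert superoxide to hydrogen peroxide, Sod1 in the cytosol and Sod2 in mitochondria. Sod1 was 6.07, 6.08, 5.93 and 6.23 in Npc1-/- and 5.89, 5.99, 6.16 and 6.03 in wild type, with fully interleaved groups and a difference of 0.06 ± 0.10 log2 units (SE; adjusted p = 0.851). Sod2 was 4.57, 4.69, 4.56 and 4.61 in Npc1-/- and 4.61, 4.59, 4.92 and 4.76 in wild type. Here the wild-type replicates 3 and 4 were the highest arrays, and the difference was -0.11 ± 0.10 (adjusted p = 0.760). The other Sod1 probes, at other positions of the gene, had mean levels of -1.68 and -4.05 in Npc1-/- and -1.87 and -4.29 in wild type. Their differences were 0.19 ± 0.17 and 0.24 ± 0.16 (SE; limma adjusted p = 0.811 each over all probes). One of them was well above background on 3 of the 4 wild-type arrays. Of its 10 spots, 8 to 10 were used per array, with an SD of 0.069 to 0.284 log2 units. Sod1 by its brightest probe had the smallest spread of the 10 genes over all 8 arrays (SD 0.11).

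Gpx1 and Cat remove the hydrogen peroxide that results, Gpx1 with glutathione and Cat (catalase) in peroxisomes. Gpx1 was 4.18, 4.10, 3.96 and 4.16 in Npc1-/- and 3.71, 3.89, 4.42 and 4.08 in wild type. The wild-type arrays enclosed the Npc1-/- arrays, from wild-type replicate 1 to wild-type replicate 3, and the difference was 0.08 ± 0.15 (SE; adjusted p = 0.872). Cat was 0.59, 0.78, 0.69 and 0.78 in Npc1-/- and 0.44, 0.77, 0.92 and 0.98 in wild type. Its groups were nested in the same way, with a difference of -0.06 ± 0.13 (adjusted p = 0.882).

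Gclc and Gclm form glutamate-cysteine ligase, the rate-limiting enzyme of glutathione synthesis. The catalytic subunit Gclc was 0.97, 0.75, 1.03 and 0.81 in Npc1-/- and 0.99, 0.83, 0.42 and 0.86 in wild type. Wild-type replicate 3 was the lowest of all 8 arrays, and the difference was 0.12 ± 0.14 (SE; adjusted p = 0.797). The modifier subunit Gclm was -1.73, -1.86, -1.68 and -1.68 in Npc1-/- and -1.53, -2.05, -1.74 and -1.52 in wild type. Its groups overlapped throughout, with -0.03 ± 0.13 (adjusted p = 0.956). Nqo1, a quinone reductase and standard read-out of NRF2, was -0.68, -0.54, -0.67 and -0.28 in Npc1-/- and -0.73, -0.76, -0.44 and -0.69 in wild type. One array of each genotype, Npc1-/- replicate 4 and wild-type replicate 3, stood above the others, and the difference was 0.11 ± 0.12 (adjusted p = 0.782).

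For the 7 genes other than Hmox1, Mt1 and Mt2, the 95% confidence intervals of the log2 fold change together spanned -0.36 to 0.43. The adjusted p of the 9 genes other than Hmox1 ran from 0.752 to 0.956, which does not show that their levels were equal. Scaling to the array median in place of the 75th percentile shifted the median of all genes by -0.11, and the difference of each of the 10 genes by the same amount, so that the signs of Sod1 and Gpx1 turned (-0.05 and -0.03). Single arrays weighed on several genes. Wild-type replicate 3 was the highest wild-type array for 6 of the 10 genes and the lowest for Gclc, and Npc1-/- replicate 3 was the lowest of its group for 6.

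**Figure D3:**
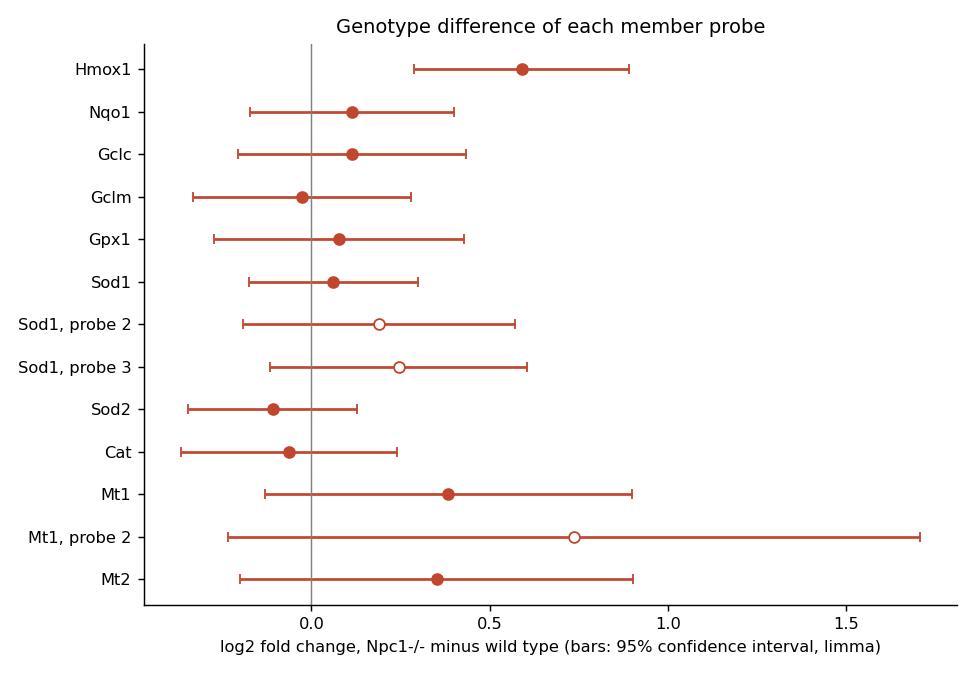
Log2 fold change (Npc1-/- minus wild type) of each of the 13 probes with its 95% confidence interval from limma; filled circles mark the probe used for the gene, open circles other probes of Mt1 and Sod1. The Hmox1 interval lies above 0, and the intervals of the other 12 probes include 0.

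None of 10 regulators and relatives passed in the same fit, where 0.767% of all genes did. Nfe2l2, the gene of NRF2, was 0.92, 0.99, 0.71 and 0.74 in Npc1-/- and 0.52, 0.57, 0.66 and 0.56 in wild type. Its groups were apart by a small step, and limma gave 0.26 ± 0.10 log2 units (SE; adjusted p = 0.543). The mean over all its probes gave 0.56 (adjusted p = 0.134). Its inhibitor Keap1 had 0.01 ± 0.15 and the competing repressor Bach1 0.15 ± 0.30. The thioredoxin reductase Txnrd1 had 0.04 ± 0.08, the sulfiredoxin Srxn1 0.04 ± 0.11, and the glutathione reductase Gsr -0.00 ± 0.12, and all 3 are targets of NRF2. The zinc sensor Mtf1 had -0.12 ± 0.12 and the neural metallothionein Mt3 0.06 ± 0.19. The extracellular dismutase Sod3 had -0.06 ± 0.29 and the constitutive haem oxygenase Hmox2 -0.23 ± 0.13. The signs other than those of Nfe2l2 and Hmox2 changed with scaling, array weights or left-out arrays.

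Of 25 NRF2 pathway genes tested, 1 was higher, none lower and 24 did not pass, with a median log2 fold change of 0.03. The gene that passed was Osgin1, an oxidative stress-induced growth inhibitor, at -3.32, -3.30, -3.38 and -3.12 in Npc1-/- and -4.16, -3.74, -4.33 and -4.25 in wild type. The groups were apart, and the log2 fold change was 0.84 ± 0.14 (SE; adjusted p = 0.0389). This call was lost in 14 of 20 alternatives, and the mean over all its probes gave 0.41 (adjusted p = 0.480). At an unadjusted limma p under 0.05 the NRF2 list had 5 of 25, against 7.4% of all genes. These were Osgin1, Nfe2l2, Mafk and Slc7a11, higher in Npc1-/-, and Taldo1, lower. Of 22 glutathione enzymes none passed, with a median of 0.01 and 2 at an unadjusted p under 0.05. Gpx4, which reduces lipid peroxides, and the transferase Gstm1, the members with the highest signal, had -0.10 ± 0.15 and 0.03 ± 0.09 (SE; adjusted p = 0.848 and 0.918). Of 17 thioredoxins and peroxiredoxins none passed, with a median of -0.06 and 0 at an unadjusted p under 0.05. The peroxiredoxins Prdx2 and Prdx5 had -0.10 ± 0.11 and -0.06 ± 0.13 (adjusted p = 0.777 and 0.886).

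Of 23 genes of metallothionein, zinc and copper handling none passed, with a median log2 fold change of -0.00. The zinc transporter Slc39a7 and the copper chaperone Atox1 had -0.11 ± 0.11 and -0.04 ± 0.13 (SE; adjusted p = 0.770 and 0.932). The largest difference, picked after its value was seen, was that of ceruloplasmin (Cp), a copper-carrying ferroxidase made by astrocytes. Cp was -0.30, -0.61, -0.85 and -0.88 in Npc1-/- and -1.47, -1.46, -1.31 and -1.48 in wild type. The groups were apart with little spread in wild type, and the difference of 0.77 ± 0.14 (SE) missed the threshold (adjusted p = 0.0543; it passed in 3 of 20 alternatives). Of 18 haem and iron genes tested none passed, with a median of -0.07. At an unadjusted limma p under 0.05 there were 5 of 18, against 7.4% of all genes. These were Cp, Ftl1 and Hpx, higher in Npc1-/-, and Cd163 and Trf, lower. The largest difference, also picked after its value was seen, was that of Cd163, a macrophage receptor that takes up haemoglobin. Cd163 was -4.61, -5.19, -5.72 and -5.26 in Npc1-/- and -4.18, -4.28, -4.52 and -4.10 in wild type, well above background on 3 arrays of each. The Npc1-/- arrays were all lower, by -0.92 ± 0.22 (SE; adjusted p = 0.162; -1.12 to -0.41 over 19 alternatives), the opposite sign to that of all 16 microglia and macrophage markers. The ferritin chains Fth1 and Ftl1, which store the iron that haem breakdown releases, had -0.03 ± 0.14 and 0.42 ± 0.11 (adjusted p = 0.955 and 0.250). Ftl1 was 3.68, 3.72, 3.76 and 3.94 in Npc1-/- and 3.14, 3.43, 3.53 and 3.33 in wild type, without overlap. Over the 6 lists together, 1 of 108 genes tested was higher and none lower, a share close to the 0.767% of all genes. At that share a list of this size can hold no call, so these counts do not show unchanged levels.

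**Figure D4:**
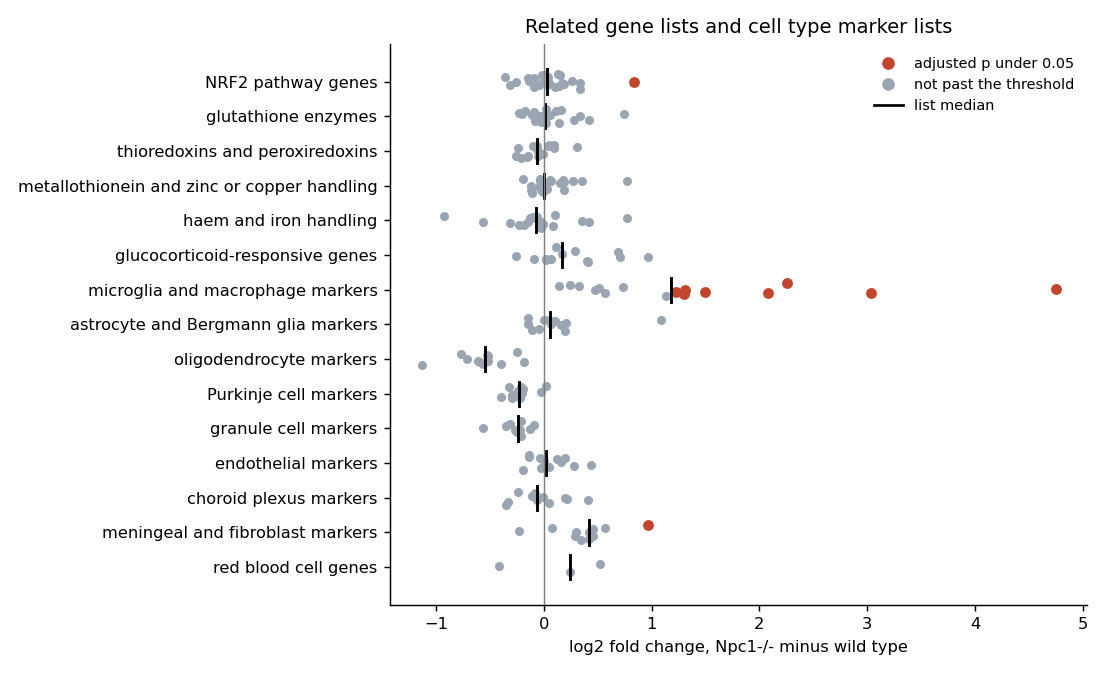
Log2 fold change (Npc1-/- minus wild type) of each tested gene in 6 lists of related genes and 9 lists of cell type markers, with the list median as a black line; red points have an adjusted p under 0.05. The red points lie in 3 lists, with 8 in the microglia and macrophage markers and 1 each in the NRF2 pathway and meningeal lists.

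Other cell types that could carry these transcripts were read from their markers. Astrocytes and Bergmann glia, the main source of Mt1 and Mt2, had none of 12 markers past the threshold and a median log2 fold change of 0.06. Aldoc and S100b, the markers with the highest signal, had 0.00 ± 0.10 and -0.15 ± 0.13 (SE; limma adjusted p = 0.991 and 0.756). The largest difference among the 12 markers, picked after its value was seen, was that of Gfap, the filament protein of reactive astrocytes. Gfap was 1.81, 2.13, 1.85 and 2.15 in Npc1-/- and 0.86, 1.45, 0.61 and 0.68 in wild type. The groups were apart, by 1.08 ± 0.19 log2 units (SE; adjusted p = 0.0516), and Gfap passed in 5 of 20 alternatives. Oligodendrocyte markers had a median of -0.55, Purkinje cell markers -0.23 and granule cell markers -0.24, with none of 12 past the threshold in each. At an unadjusted p under 0.05 these lists had 9, 0 and 4 of 12, against 7.4% of all genes, and 0, 1 and 0 positive differences. Endothelial markers had 0.02, also with none of 12. Of 12 meningeal and fibroblast markers 1 passed, the prostaglandin D synthase Ptgds (0.96 ± 0.16, SE; adjusted p = 0.0397), with a list median of 0.42 and 9 of 12 at an unadjusted p under 0.05. The Ptgds call was lost in 14 of 20 alternatives, while its difference stayed between 0.85 and 1.17. None of 11 choroid plexus markers passed (median -0.06), although their centred median fell to -1.77 on Npc1-/- replicate 3 and reached 0.90 on Npc1-/- replicate 2. Of 10 red blood cell genes 3 could be tested, and none passed. The part of any of these cells in the 10 genes' levels was not tested.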

How the data were processed

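Total RNA (500 ng per array) was labelled with Cy3 and hybridised to Agilent one-colour arrays. Per the submitters' processing notes, the scanner software was Agilent Feature Extraction 9.5. Per the file headers, the deposited intensity values had background subtracted and spatial trends removed within each array, without scaling across arrays. The deposited flags and probe coordinates (mm7) were also used.

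Here, control spots were left out, outlier spots (74 to 115 per array) set to missing, spots of a probe averaged, and log2 signals set relative to each array's 75th percentile. Probes were tested if 4 or more of the 8 arrays read them well above background, and a gene was represented by its probe with the highest mean. Gene names follow RefSeq on GRCm38.p6 (22951 probes by accession, 6659 by symbol, 3109 by synonym, 8455 kept). The genotype difference was fitted in limma 3.58.1 (R 4.3.3), two-sided, with Benjamini-Hochberg adjustment and a threshold of 0.05. On simulated data for this comparison (17981 genes), the fit called 62 of 100 genes changed by 1 log2 unit and 88 of 100 changed by 2, with 10 false calls. Correlations used exact permutation.

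The genes and lists were chosen with earlier results of these data known. Named by rule were the 10 genes, 10 fixed relatives and, per list, up to 4 passing genes or the 2 with the highest signal. For the 7 cell type lists in which none passed, the genes with the highest signal are given for the astrocyte list only. Gfap, from the astrocyte list, and other list genes outside this rule were picked after their values were seen. Genes nearest in pattern were named by their correlation. The arrays lay on 4 slides scanned on 2 days. Alternatives were 19 planned and 1 added. The protein sequences were not used here.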

Additional observations from a re-analysis of the deposited data

Results flagged for a closer look

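In groups of 4 arrays, the highest or lowest value was tested for standing apart from the nearest other value by more than Dixon's limit. Of 84 groups of 4 tested, 4 passed that limit, where chance gives about 1 in 20.

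Among the probes of the 10 genes, single-spot probes of Mt1 and Sod1 stood out on 1 array each. The Mt1 probe printed once gave -1.82 on wild-type replicate 4, where the other wild-type arrays gave -0.05, -0.01 and 0.07, and the Mt1 probe printed 10 times gave 4.55 on that array, the lowest wild-type value there too. A Sod1 probe printed once gave -2.13 on Npc1-/- replicate 4, where the others gave -1.54, -1.58 and -1.47, while the brightest Sod1 probe was at its highest on that array (6.23).

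Among related genes, Cp gave -1.31 on wild-type replicate 3, above -1.48 to -1.46 on the other wild-type arrays and below all Npc1-/- arrays. Gpx4 gave 5.62 on Npc1-/- replicate 4, where the other Npc1-/- arrays gave 5.45, 5.45 and 5.47.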

How the results depend on the processing

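The number past the threshold was 0 of 10 genes in 19 of 20 alternatives and 0 probes in 18 of 19 (13 tested, 12 above background on all arrays; the mean over probes gives no probe value), and 1 with array weights, where Hmox1 had 0.65. By gene, unadjusted p was under 0.05 for 1 of 10. The labels do not say whether the replicate numbers pair the samples. Deviations from the group means of same-numbered arrays correlated at 0.149, 0.038, -0.445 and 0.201. Deviations within a group sum to 0 and are not independent, so these values cannot decide it. With the replicate block 27 genes passed in all and Hmox1 had 0.59 (limma adjusted p = 0.387). Over all genes, 138 passed as reported, against 87 with quantile normalization, 75 with array median scaling (shift of -0.11 over all genes), 59 without a filter, 88 above background on all arrays, 38 with the slide as a block, 86 without wild-type replicates 2 and 3 (chosen after seeing the data) and 55 to 148 without 1 array; array weights gave 364, of them 286 higher. Signs of values near 0 turned as follows, in log2 units. Under the array median and the percentile over detected probes, these genes all moved by the same -0.11 and 0.052, which turns small values; for the other settings the cause was not tested. Normexp with quantile normalization turned Cat (0.033), Ddit4 (0.031), Fth1 (0.017), Gpx4 (0.021) and Gsr (0.023), and quantile normalization alone Atox1 (0.029), Gsr (0.034) and Prdx5 (0.014). The percentile over probes detected on all arrays turned Atox1 (0.014), Fth1 (0.024), Gclm (0.025) and Gsr (0.047), and the array median turned Gpx1 (-0.031), Gstm1 (-0.078), Keap1 (-0.098), Mt3 (-0.044), Sod1 (-0.046), Srxn1 (-0.065) and Txnrd1 (-0.066). Array weights turned Atox1 (0.0045), Ddit4 (0.19), Mtf1 (0.071) and Sod3 (0.11). The scan day as a block turned Gclm (0.012) and Keap1 (-0.022), and the slide turned Cat (0.0038), Gclm (0.057), Gsr (0.016), Gstm1 (-0.013) and Keap1 (-0.022). Without wild-type replicates 2 and 3 the signs of Atox1 (0.096), Bach1 (-0.18), Cat (0.0055), Ddit4 (0.10), Fth1 (0.013), Gclc (-0.033), Gpx4 (0.047), Gsr (0.034), Keap1 (-0.032) and Prdx5 (0.028) turned. Leaving out 1 array at a time gave Gclc -0.0026 to 0.19, Gclm -0.14 to 0.036, Gpx1 -0.027 to 0.21, Cat -0.18 to 0.0050, Keap1 -0.079 to 0.12, Bach1 -0.025 to 0.32, Srxn1 -0.021 to 0.10, Sod3 -0.29 to 0.11, Gsr -0.076 to 0.051, Mt3 -0.051 to 0.18, Gpx4 -0.19 to 0.047, Gstm1 -0.0030 to 0.060, Prdx5 -0.14 to 0.017, Atox1 -0.12 to 0.042, Fth1 -0.097 to 0.068 and Ddit4 -0.18 to 0.026. Of 832 values over all settings, 708 kept their direction and side of the threshold or, for counts, lay within 1.5 times the reported count. The number of arrays and, for dim probes, the signal over background limit what could be seen.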
